A study of Mus musculus with 18 samples.

Results

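The comparison described here is that of hearts labelled as lacking Med13 in the heart (Med13 cKO) after triiodothyronine (T3) with hearts of the same genotype left on propylthiouracil (PTU). It rests on 6 of the 18 heart libraries of the study, 3 from cKO mice fed PTU and 3 from cKO mice fed PTU and then injected with T3. Each library was assigned to its group by its genotype and treatment labels. All mice were C57BL/6 and are listed at 12 weeks of age. They were fed normal chow or a diet with PTU from 8 weeks of age for 4 weeks, and the T3 groups received 3 daily injections of the hormone after the PTU diet. By their labels, both groups of the main comparison carried the knockout and the PTU diet and differed in the injections. The labels name neither a vehicle injection for the PTU mice nor the promoter that drove the cardiac-specific deletion. The other 12 libraries, 3 each of cKO chow, wild-type (WT) chow, WT PTU and WT PTU with T3, entered the same model and serve for reference. PolyA RNA from frozen whole hearts was sequenced with a kit that does not mark strand. The labels do not say that the 3 libraries of a group came from separate animals, so the p-values measure the spread between libraries.

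PTU blocks the synthesis of thyroid hormone in the thyroid gland and so lowers the circulating hormone. T3 is the active hormone and acts through the nuclear receptors encoded by Thra and Thrb, which sit on DNA with retinoid X receptors as partners. Without hormone the receptors recruit corepressors, and with hormone they recruit coactivators, among them the Mediator complex, which links bound factors to RNA polymerase II. Med13 belongs to the Mediator kinase module, a detachable part made up of Med12, Med13, the kinase Cdk8 and cyclin C. In the rodent ventricle, thyroid hormone is known for switching the myosin heavy chain from the slow form, Myh7, to the fast form, Myh6, and for raising the calcium pump Atp2a2 and the pacemaker channel Hcn2.

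The bases directly upstream of 5 genes whose levels are given below are shown first, because the receptors bind DNA as paired hexamers of the form AGGTCA. The sequences are the 250 bases before the annotated start in RefSeq on GRCm38.p6, read 5′ to 3′ on the strand of the gene, for the myosin pair and for 3 genes with large rises. Capitals mark every match to the half-site AGGTCA, on either strand, or to the paired pattern AGGNNANNNNAGGNNA with 4 free bases between the hexamers. The windows are chr14:54966608-54966857 for Myh6 and chr14:54994627-54994876 for Myh7, both on the minus strand. The start used for Myh6 lies inside the outer bounds of the gene given further on. Those of the uncoupling protein gene Ucp3 and of Hcn2 are chr7:100472741-100472990 and chr10:79716384-79716633 on the plus strand, and that of the kelch-family gene Klhl33 is chr14:50897484-50897733 on the minus strand.
Myh6: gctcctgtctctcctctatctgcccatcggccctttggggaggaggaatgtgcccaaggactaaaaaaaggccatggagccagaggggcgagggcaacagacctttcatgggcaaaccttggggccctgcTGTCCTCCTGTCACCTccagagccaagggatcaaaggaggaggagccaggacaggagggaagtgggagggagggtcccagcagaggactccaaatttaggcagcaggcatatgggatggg
Myh7: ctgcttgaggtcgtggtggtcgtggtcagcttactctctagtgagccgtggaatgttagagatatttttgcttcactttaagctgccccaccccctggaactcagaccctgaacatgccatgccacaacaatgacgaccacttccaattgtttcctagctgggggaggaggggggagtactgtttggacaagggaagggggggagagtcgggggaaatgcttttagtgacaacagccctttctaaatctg
Ucp3: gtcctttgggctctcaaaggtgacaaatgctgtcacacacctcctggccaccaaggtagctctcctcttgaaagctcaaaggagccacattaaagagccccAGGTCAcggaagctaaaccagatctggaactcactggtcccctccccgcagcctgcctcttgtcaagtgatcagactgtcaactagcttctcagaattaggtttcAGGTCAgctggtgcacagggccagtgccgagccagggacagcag
Hcn2: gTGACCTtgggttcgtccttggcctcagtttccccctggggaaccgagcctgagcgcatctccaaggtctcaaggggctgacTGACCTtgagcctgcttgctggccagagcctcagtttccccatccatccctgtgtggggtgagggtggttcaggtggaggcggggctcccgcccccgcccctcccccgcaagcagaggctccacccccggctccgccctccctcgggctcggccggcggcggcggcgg
Klhl33: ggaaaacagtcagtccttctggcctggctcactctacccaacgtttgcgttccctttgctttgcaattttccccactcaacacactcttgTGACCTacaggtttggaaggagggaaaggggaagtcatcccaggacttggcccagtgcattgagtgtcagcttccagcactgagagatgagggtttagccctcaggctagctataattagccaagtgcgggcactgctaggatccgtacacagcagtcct
In the Myh6 window the paired pattern lay on the opposite strand at 120 to 105 bases before the start. The pattern was loosened so that it admits this Myh6 element, so the match there is no result. Ucp3 held the half-site at 149 to 144 and at 44 to 39 bases before the start, and Hcn2 held it on the opposite strand at 249 to 244 and 168 to 163. Klhl33 held 1 copy, on the opposite strand at 160 to 155, and the Myh7 window held no match. Over all 32851 RefSeq windows of this length, 4607 (14.0%) held the half-site, 722 (2.2%) the paired pattern and 5 (0.0152%) the exact repeat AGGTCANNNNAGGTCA. Such matches describe letters and are not measured binding. Windows were available for 9546 of the 12587 genes tested (75.8%), so no share of windows with a match is given over sets of genes. Hr, Thra, Atp2a2 and Myom2 had no entry.

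The values deposited by the authors are FPKM, fragment counts scaled for transcript length and library size. Med13 (GRCm38.p6 chromosome 11, 86267033 to 86357596) read 6.05, 4.93 and 5.04 FPKM in cKO PTU hearts, 6.82, 6.5 and 5.44 after T3 and 6.26, 6.34 and 5.09 on chow, against 6.55, 5.57 and 6.96 in WT PTU and 6.29, 5.3 and 5.61 in WT T3 hearts. The ranges of the genotypes overlap, so this whole-gene value does not check the genotype labels, and no values per exon were analysed. The FPKM table gives no read totals. From the steps between low values, the deepest of the 6 cKO hearts had about 1.5 times the depth of the shallowest, and 11766 to 12049 genes reached 1 FPKM in each. On the first principal component of all 18 libraries (51.3% of the variance) the cKO PTU hearts lay at -34.25, -26.66 and -31.79 and the cKO T3 hearts at 33.88, 36.15 and 31.31. One library, cKO PTU replicate 2, stood apart on the second component (12.9%), at 30.08. Macrophage markers summed to 233, 758 and 279 FPKM in PTU replicates 1, 2 and 3, against 702, 636 and 588 after T3, and atrial markers to 3343, 10293 and 6161 against 1798, 4673 and 600.1. Results that depend on cKO PTU replicate 2 are therefore also given without it. The atrial list includes Nppa, which alone read 3206, 10081 and 3955 FPKM under PTU and 1449, 3313 and 507 after T3. The rest of the atrial sum was larger in PTU replicate 3 than in PTU replicates 1 and 2.

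**Figure D1:**
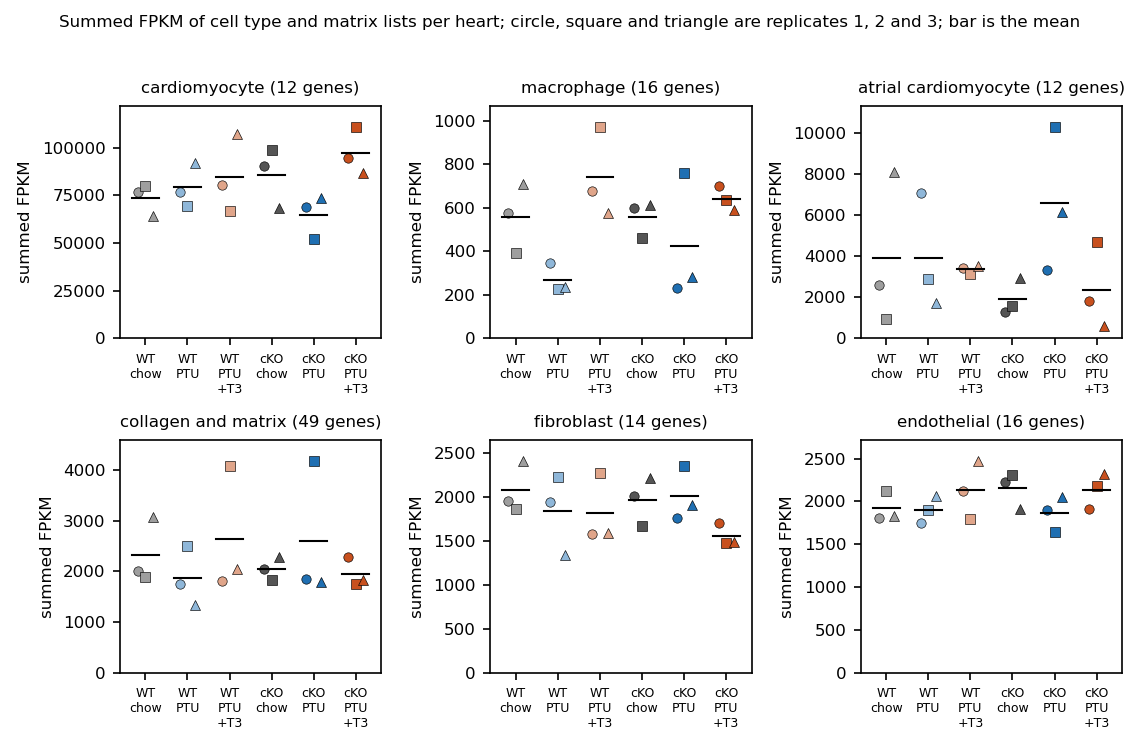
Summed FPKM of cell-type marker lists and of the collagen and matrix list in each of the 18 hearts, on linear axes from 0, by group; circles, squares and triangles are replicates 1, 2 and 3 and bars are group means. In cKO PTU replicate 2 the macrophage sum was 758 FPKM against 233 and 279 in the other 2 cKO PTU hearts.

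Cardiomyocyte markers, all 12 above the table's lowest value of 0.01 in all 6 hearts, summed to 68956, 52039 and 73479.6 FPKM under PTU and 94381, 110984 and 86432 after T3. This list includes Myh6 and the cardiac actin gene Actc1, which are given below among the genes that rose. The summed fibroblast markers were 1763, 2359 and 1911 and 1709, 1478 and 1489, and the endothelial sums 1905, 1647 and 2049.9 and 1913, 2184 and 2321. Lymphocyte and neutrophil markers stayed low in sum, at 9.5, 13.7 and 14.4 FPKM under PTU and 39.3, 27.6 and 35.3 after T3, with 6 of 15 markers at the lowest value in at least 1 of the 6 hearts. In whole hearts, fewer cells of a type and less RNA per cell cannot be told apart, and this holds for every level given here.

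T3 moved a large part of the heart transcriptome in cKO mice. Of 12587 genes tested, 3137 (24.9%) were higher and 2740 (21.8%) lower after T3 than under PTU alone, 5877 in all (46.7%), at an adjusted p under 0.05 in limma. Counts within the gene lists below are to be read beside these shares. Changes are differences of the mean log2(FPKM + 1), called log2 fold changes, which understate the change of genes at low levels. A bare value in parentheses after a gene name is this log2 fold change, after T3 against PTU in cKO hearts. Among these calls 978 changed by at least 1 on this scale, 603 upward and 375 downward, and the median over all genes tested was 0.00079. In 6978 genes (55.4%) the 3 T3 hearts did not overlap the 3 PTU hearts. Without cKO PTU replicate 2 the calls numbered 5401 (42.9%), of which 5032 were among the 5877.

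The steepest rises included known targets of the hormone. Hr, which encodes the nuclear corepressor hairless (GRCm38.p6 chromosome 14, 70554056 to 70573548), read 1.03, 1.41 and 1.62 FPKM under PTU and 59.3, 58.2 and 55.9 after T3 (log2 fold change 4.65 ± 0.17 (SE), adjusted p = 1.05e-10). All 3 T3 hearts also lay above the chow hearts of the same genotype, at 5.44, 5.36 and 7.04. Klhl33 (chromosome 14, 50888581 to 50897483) went from 0.506, 0.567 and 0.757 to 50.1, 47.3 and 33.3 FPKM (log2 fold change 4.77 ± 0.26 (SE), adjusted p = 4.12e-09). Every T3 heart was far above every PTU heart. Trim7, a ubiquitin ligase known to bind glycogenin, read 2.25, 2.52 and 3.22 and then 65.6, 68.3 and 48.3 FPKM (log2 fold change 4.07 ± 0.19 (SE), adjusted p = 5.11e-10). The alpha-tubulin gene Tuba8 rose from 30.8, 23.6 and 44.5 to 538, 636 and 466 FPKM (log2 4.05), the secreted factor Metrn from 8.89, 9.9 and 11.7 to 116, 153 and 159 (log2 3.68). Tfrc, the transferrin receptor that brings iron into cells, read 7.15, 6.82 and 7.41 FPKM under PTU and 141, 112 and 68.6 after T3 (log2 3.67, adjusted p = 4.06e-06). Here the T3 hearts were spread widely, but the lowest still lay above the PTU hearts. Tmem52, a membrane protein gene, was nearly silent under PTU at 0.198, 0.111 and 0.377 FPKM and reached 15.7, 21.5 and 17.2 (log2 3.96).

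The uncharacterised gene 2210407C18Rik had the highest fitted change, with 0.01, 0.01 and 1.12 FPKM under PTU, where 0.01 is the lowest value the table holds, and 97.9, 82.9 and 20.3 after T3. Its fitted log2 fold change of 5.44 depends on the constant added before taking logs and was 7.81 with 0.1 in place of 1, and 6.14 without cKO T3 replicate 3. With the smaller constant the values were 5.94 for Klhl33, 5.34 for Hr and 5.86 for Tmem52.

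Among the steepest falls was a protein of the sarcomere's M band. Myom2, which cross-links thick filaments there (GRCm38.p6 chromosome 8, 15057653 to 15133420), read 675, 466 and 662 FPKM under PTU and 17.6, 27.4 and 25 after T3 (log2 fold change -4.63 ± 0.22 (SE), adjusted p = 5.30e-10). Both groups were far apart, and the T3 hearts were also below the chow hearts at 186, 313 and 281. The long noncoding RNA 9630028I04Rik fell from 37, 29.6 and 39.4 to 0.473, 0.475 and 0.989 FPKM (log2 fold change -4.47 ± 0.21 (SE), adjusted p = 5.30e-10). Fam134b, a receptor for the selective autophagy of endoplasmic reticulum, fell from 209.9, 159.7 and 194 to 16.3, 24.9 and 23.9 FPKM (log2 -3.07, adjusted p = 1.98e-07). Apod, which encodes the lipid carrier apolipoprotein D, read 38, 48.7 and 34 and then 5.12, 3.26 and 3.68 FPKM (log2 -3.04). Cpxm2 (log2 -3.78), Zcchc5 (-3.56) and the kinetochore protein gene Cenpf (-3.21) went from levels of 8.00 to 27.1 FPKM to below 1 FPKM in every T3 heart. With the constant 0.1 these values were -4.79, -5.94 and -4.69, and that of 9630028I04Rik was -5.63.

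**Figure D2:**
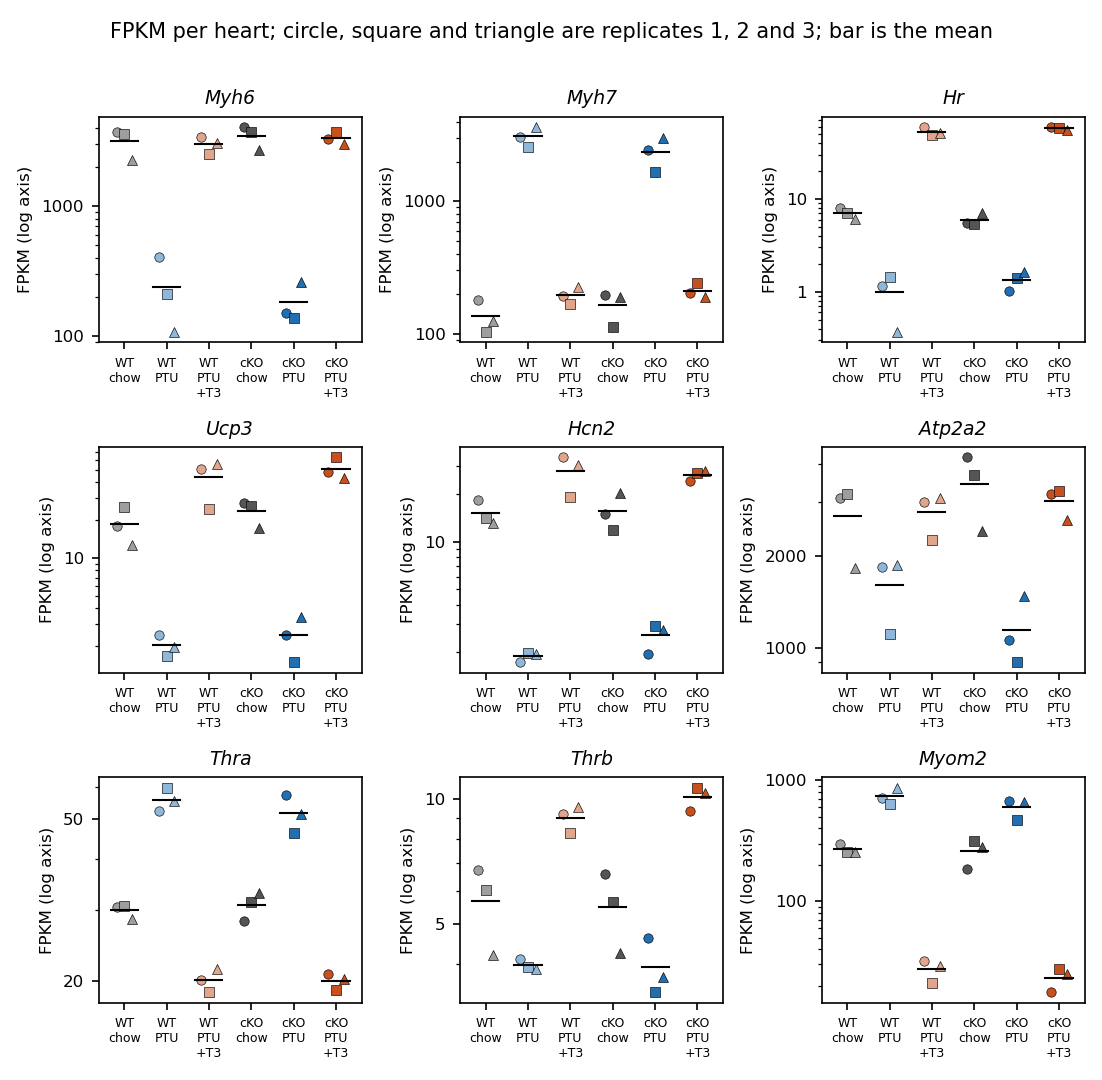
FPKM of 9 genes in each of the 18 hearts on log axes, by group; circles, squares and triangles are replicates 1, 2 and 3 and bars are group means. Myh6, Hr, Ucp3, Hcn2, Atp2a2 and Thrb were higher and Myh7, Thra and Myom2 lower in all 3 cKO T3 hearts than in all 3 cKO PTU hearts.

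The myosin genes exchanged places. Myh6, the fast alpha myosin heavy chain (GRCm38.p6 chromosome 14, 54941921 to 54968017), read 148, 137 and 259 FPKM under PTU and 3310.3, 3743 and 2999.7 after T3 (log2 fold change 4.25 ± 0.37 (SE), adjusted p = 4.31e-07), beside 4083, 3732 and 2728 on chow. Myh7, the slow beta chain, whose gene lies next to it (chromosome 14, 54970684 to 54994626), read 2456, 1662 and 3019 and then 202, 239 and 188 FPKM (log2 fold change -3.46 ± 0.25 (SE), adjusted p = 5.92e-08), beside 196, 113 and 188 on chow. No T3 heart overlapped a PTU heart for either gene. Against chow, the T3 hearts were at log2 -0.054 ± 0.37 (SE), adjusted p = 0.939 for Myh6 and at log2 0.37 ± 0.25 (SE), adjusted p = 0.322 for Myh7. Mhrt, the noncoding RNA read from the opposite strand of Myh7, rose from 16.4, 9.62 and 15.7 to 74.9, 93.6 and 75.1 FPKM (log2 fold change 2.49 ± 0.25 (SE), adjusted p = 1.45e-06). Exons of Mhrt and Myh7 overlap, and reads of the pair cannot be told apart where they do. The list of T3-repressed genes drawn up here holds Mhrt, which counts there as a rise.

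Of 23 tested genes in a list of known T3-induced heart genes, 19 rose and 1 fell, with a median log2 of 1.29 against 0.00079 over all genes tested. This list and the T3-repressed list below were chosen with earlier results of these data known, so their counts are no independent check. Rises ranged from 0.37 to 4.65. Ucp3, a mitochondrial carrier induced when fatty acids are burned, went from 2.44, 1.49 and 3.41 to 48.2, 63.2 and 43 FPKM (log2 fold change 3.95 ± 0.31 (SE), adjusted p = 2.02e-07). Hcn2, a channel of the pacemaker current, went from 1.96, 2.94 and 2.76 to 24.2, 27.2 and 28.1 FPKM (log2 fold change 2.96 ± 0.20 (SE), adjusted p = 3.07e-08). The member that fell was Ppargc1a, a coactivator of mitochondrial genes, with 43.4, 32 and 41.6 FPKM under PTU and 15.6, 16.8 and 16.4 after T3 (log2 fold change -1.20 ± 0.25 (SE), adjusted p = 0.001). Without cKO PTU replicate 2 the list had 18 rises and 1 fall. Thrsp, a lipogenic T3 target best known in liver, rose from 36.3, 31 and 39.1 to 57.5, 63.8 and 86.3 FPKM (log2 0.93, adjusted p = 0.00152).

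In the list of T3-repressed genes 7 of 10 fell and 2 rose (median -0.82). Tnni1, the slow skeletal troponin I of the fetal heart, went from 7.71, 5.26 and 9.91 to 0.266, 0.333 and 0.126 FPKM (log2 -2.76), and Myh7b, another slow myosin heavy chain gene, changed by -1.57. The latter overlaps Trpc4ap on the opposite strand. The sodium-calcium exchanger Slc8a1 fell from 47.1, 45.5 and 46.4 to 27.3, 21.3 and 24.5 FPKM (log2 -0.91, adjusted p = 7.19e-05). Pln, the phospholamban gene whose product restrains the calcium pump, read 4054, 2753 and 3888 FPKM under PTU and 2557, 2884 and 2139 after T3 (log2 fold change -0.49 ± 0.19 (SE), adjusted p = 0.0488). Its groups overlapped through PTU replicate 2, and without that library the fall was larger (log2 -0.66, adjusted p = 0.0133). The call ended under 7 of 16 alternatives, among them 4 of 6 leave-outs, with adjusted p up to 0.178. The potassium channel gene Kcnd3 was the other member that rose (0.66).

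The hormone receptors themselves moved in opposite directions. Thra, the main receptor gene of the heart, read 57.4, 46.2 and 51.5 FPKM under PTU and 20.8, 19 and 20.3 after T3 (log2 fold change -1.32 ± 0.088 (SE), adjusted p = 2.12e-08). All T3 hearts lay below the chow hearts as well, at 28.1, 31.3 and 32.9. Thrb read 4.63, 3.42 and 3.73 and then 9.32, 10.6 and 10.3 FPKM (log2 fold change 1.18 ± 0.15 (SE), adjusted p = 8.53e-06), with chow hearts at 6.59, 5.64 and 4.25. Exons of Thra overlap those of the clock repressor Nr1d1 on the opposite strand. Of the 15 tested genes for receptors, cofactors and hormone transport, 4 rose and 5 fell (median 0.012). The corepressor Ncor1 (0.31) and the transporter Slc16a10 (0.62) were higher. The coactivator Ncoa2 (-0.40) and the hormone carrier Ttr (-0.70) were lower. The call for Ncor1 ended under quantile normalization.

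Within the Mediator kinase module, Med13 itself did not pass the test (log2 fold change 0.19 ± 0.11 (SE), adjusted p = 0.153). Med12, the subunit that activates the kinase, was lower in all T3 hearts, at 7.78, 7.08 and 7.4 FPKM under PTU and 5.8, 5.86 and 5.4 after T3 (log2 fold change -0.33 ± 0.088 (SE), adjusted p = 0.00582). Med13l, the paralog of Med13, read 6.38, 5.04 and 5.36 and then 3.92, 3.92 and 4.54 FPKM (log2 fold change -0.36 ± 0.10 (SE), adjusted p = 0.00716), and the kinase Cdk19 changed by -0.35. Ccnc, encoding cyclin C, rose from 6.98, 5.48 and 6.58 to 9.48, 8.68 and 8.24 FPKM (log2 fold change 0.42 ± 0.11 (SE), adjusted p = 0.00421). It overlaps Tstd3 on the opposite strand. Cdk8 read 8.25, 8.88 and 9.1 and then 10.8, 10.7 and 10 FPKM (log2 0.24, adjusted p = 0.0337), a call that ended without PTU replicate 1 or 2, without T3 replicate 1 or 2, and under median-of-ratios scaling. Every change in the module was below 0.5. Of 26 core Mediator subunits 7 rose, among them Med29 (0.68) and Med21 (0.68), and 4 fell, led by Med10 (-0.63) and Med25 (-0.44), a total near the 46.7% over all genes.

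Sarcomere genes changed in both directions. Of 40 tested, 12 rose and 9 fell (median 0.065), while quantile normalization gave 8 rises and 13 falls (median -0.078). The called share of 52.5% was near the 46.7% over all genes. Besides the myosins, Acta1, the skeletal alpha-actin gene, rose from 82.6, 294 and 65.4 to 669, 1015 and 928 FPKM (log2 fold change 2.86 ± 0.63 (SE), adjusted p = 0.00197). PTU replicate 2 was the highest of its group, and without it the difference was 3.53. The skeletal genes Tnni2 (2.73) and Myl1 (1.95, 1.35 without PTU replicate 1) also rose. Actin genes are near-identical copies of each other, so reads may be shared among them. Actc1, the cardiac alpha-actin, went from 4975, 6823 and 4991 to 19475, 22243 and 19548 FPKM (log2 1.88). Skeletal muscle markers, a list that includes Acta1, summed to 1735, 1699.8 and 2201 FPKM under PTU and 2954, 3662 and 3043 after T3. The skeletal genes Myh1, Myh2 and Actn3 reached at most 0.055, 0.033 and 0.14 FPKM in any of the 18 libraries, so the sum does not measure skeletal muscle. Of these 12 markers, Myh4 and Myod1 were at the lowest value of the table in all 6 hearts, and 3 of the 6 tested rose.

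The ion channels divided as well, with 11 of 28 higher and 8 lower. After T3 the pacemaker genes Hcn2 (2.96) and Hcn4 (1.65), the sodium channel subunit Scn4b (2.36) and the silent potassium channel subunit Kcnv2 (1.85) were higher. Scn4b went from 0.283, 0.634 and 0.674 to 6.08, 6.59 and 7.88 FPKM. Kcnip2, which encodes the accessory subunit of the fast transient outward potassium current, read 132, 91.5 and 143 FPKM under PTU and 15, 23.3 and 13.9 after T3 (log2 fold change -2.76 ± 0.34 (SE), adjusted p = 1.18e-05). On chow it read 148, 144 and 96.4, so the chow and PTU hearts lay together and the T3 hearts lay below both. The channel genes Kcnj5 (-1.47), Kcne1 (-1.33) and Kcna4 (-1.15) fell as well. Kcnd2, a pore-forming subunit of the same outward current, read 2.86, 1.77 and 2.91 and then 4.07, 4.94 and 3.8 FPKM, and its log2 difference of 0.60 did not pass the test (adjusted p = 0.117). It passed under 1 of 16 alternatives, a fit of the compared groups alone, and adjusted p ran from 0.0179 to 0.326 over all 16.

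Calcium-handling genes gave 10 rises and 9 falls among 28. Atp2a2, which encodes the pump that refills the sarcoplasmic reticulum with calcium (GRCm38.p6 chromosome 5, 122453513 to 122502225), read 1055, 895 and 1479 FPKM under PTU and 3171, 3251 and 2609.6 after T3 (log2 fold change 1.42 ± 0.27 (SE), adjusted p = 4.82e-04). The T3 hearts lay within the span of the chow hearts, 4194, 3670.1 and 2409. The ryanodine receptor Ryr2 (1.15), the junction protein Jph2 (1.21) and the skeletal calsequestrin Casq1 (2.09) rose. Falls included the L-type channel genes Cacna1c (-1.25) and Cacnb1 (-1.36) and the kinase Camk2a (-0.77).

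Adrenergic and muscarinic signalling showed 9 rises and 10 falls among 31 genes (61.3% called, beside 46.7% over all genes). The beta receptor Adrb1 (0.95), the alpha receptors Adra1b (1.72) and Adra1a (1.18) and the G-protein regulator Rgs4 (1.25) rose. The phosphodiesterases Pde3a (-1.54) and Pde1c (-1.35), the receptor kinase Grk5 (-1.46) and Rgs2 (-1.19) fell. The Adra1a call ended without PTU replicate 2 or T3 replicate 2.

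Genes of mitochondrial energy supply mostly rose. In oxidative phosphorylation 31 of 47 rose and none fell at this threshold (median 0.59), beside 24.9% and 21.8% over all genes. Quantile normalization gave 29 rises and 5 falls, with a median of 0.32. Cycs, the electron carrier cytochrome c, went from 273, 238 and 288 to 810.2, 883 and 712 FPKM (log2 fold change 1.59 ± 0.15 (SE), adjusted p = 7.73e-07). The cytochrome oxidase subunits Cox6a1 (1.36) and Cox7a1 (1.29) and the complex I subunit Ndufs4 (1.24) came next. The mitochondrial ribosome showed 64 rises and no fall among 75 genes (median 0.76). Mrpl12 led it, with 184, 182 and 219 FPKM under PTU and 587, 609 and 534 after T3 (log2 fold change 1.56 ± 0.14 (SE), adjusted p = 3.49e-07). The regulators of mitochondrial biogenesis gave 10 rises and 1 fall among 19. Ppargc1b (1.06), the nuclear receptor Esrra (0.88), the fusion protein Opa1 (0.81) and Nrip1 (0.69) rose while Ppargc1a, given above, fell.

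Fuel pathways gave 22 rises and 4 falls among 45 fatty acid genes (median 0.58). Pdk4, a kinase that restrains pyruvate oxidation, read 25.7, 25.6 and 48.8 FPKM under PTU and 139, 372 and 206 after T3 (log2 fold change 2.75 ± 0.44 (SE), adjusted p = 1.57e-04). The lipid droplet protein Plin5 and the triglyceride-forming enzyme Dgat2 both changed by 1.95, whereas Lpl, which releases fatty acids from circulating lipoproteins, fell by 1.29 on the log2 scale. In the citric acid cycle and pyruvate oxidation 16 of 26 rose, among them Pdhb (1.81), Suclg1 (1.60) and Dlat (1.43), and 2 fell. Under quantile normalization these counts were 12 and 6. Idh2, the mitochondrial isocitrate dehydrogenase that makes NADPH, read 2423, 1668 and 2820.1 FPKM under PTU and 634, 764 and 741 after T3 (log2 fold change -1.66 ± 0.21 (SE), adjusted p = 1.29e-05). The T3 hearts lay below the chow hearts, at 1139, 1535 and 1160.4. The other fall was Pdk1 (-1.08).

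Glycolysis and glycogen genes rose in 16 of 32 cases and fell in 5 (median 0.35), while quantile normalization gave 13 and 9 (median 0.12). Pfkfb1, a regulator of glycolytic flux best known in liver, went from 1.75, 1.35 and 2.7 to 21.9, 33.5 and 13.4 FPKM (log2 2.97, adjusted p = 6.14e-04). Pgk1 (1.69), the glycogen branching enzyme Gbe1 (1.59) and Pgam1 (1.13) rose. The glucose transporter Slc2a1 (-0.996), the hexokinase Hk1 (-1.05) and the lactate dehydrogenase Ldha (-0.41) fell. Among 16 energy-transfer genes 8 rose, led by the mitochondrial creatine kinase Ckmt2 (1.45), and 3 fell, led by the creatine transporter Slc6a8 (-1.13). The summed cardiomyocyte markers given above, which include Myh6 and Actc1, were also higher after T3, and their part in these counts was not tested.

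Protein-handling lists leaned upward. The proteasome gave 28 rises and no fall among 33 genes (median 0.45), with single rises of 0.24 to 0.96, and quantile normalization gave 17 rises and 1 fall. Of 40 chaperone genes 22 rose and 2 fell, and quantile normalization gave 18 and 7. Hspb6, a small heat shock protein of muscle, went from 253, 285 and 261 to 1550.1, 1729 and 1272 FPKM (log2 fold change 2.50 ± 0.23 (SE), adjusted p = 6.73e-07), although it overlaps Lin37 on the opposite strand. Fkbp4, a cochaperone of steroid receptors (1.68), and the mitochondrial chaperone Dnaja3 (1.32) followed. For ribosome biogenesis the counts were 21 rises, led by Rrp12 (1.39), and 2 falls among 42, with a median of 0.24.

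Stress and breakdown programmes did not share a direction. Of 25 genes of the integrated stress response and serine-folate metabolism, 5 rose, such as Mthfd1 (0.98), and 5 fell, such as Ddit4 (-1.32). That is 40% called, near the 46.7% over all genes. In the antioxidant list 11 of 27 rose and 3 fell (51.9% called), but quantile normalization gave 7 and 9. The superoxide dismutase Sod2 (1.17) and Srxn1 (1.12) rose. Nqo1, a quinone reductase, fell from 55.1, 50.5 and 46.4 to 17.7, 14.5 and 15.7 FPKM (log2 fold change -1.61 ± 0.12 (SE), adjusted p = 5.84e-08), below the chow hearts at 35, 40.1 and 37.4. Among 19 atrophy, FoxO and glucocorticoid genes 10 fell and 3 rose (median -0.54). Klf15, a circadian regulator of cardiac metabolism, fell from 50.5, 36.9 and 61.3 to 13.6, 17.3 and 12.3 FPKM (log2 fold change -1.70 ± 0.25 (SE), adjusted p = 5.34e-05), and Bnip3, a mitophagy receptor, changed by -1.08. Klf9, a direct target of several hormone receptors, rose (1.29).

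Cardiac transcription factors fell more often than they rose, in 13 of 26 cases against 3 (median -0.33). The falls held Tbx20 (-1.20), Gata6 (-0.86) and Irx5 (-0.77). Ankrd1, a stress-responsive nuclear and sarcomeric protein in that list, read 1866, 3166 and 936 FPKM under PTU and 368, 189 and 197 after T3 (log2 fold change -2.88 ± 0.66 (SE), adjusted p = 0.00269). Its PTU hearts differed more than 3-fold among themselves. Rises were small, with Myocd, a coactivator of muscle genes, at 0.62 and Gata4 at 0.24, the latter not called under quantile normalization. Immediate early genes fell in 8 of 21 cases and rose in 1, Fosl2 (0.71). The nuclear receptor Nr4a1 (-1.79) and Ctgf, a matrix-associated growth factor (-2.53), fell, and Ctgf read 141, 278 and 153 and then 37.8, 29.9 and 25.5 FPKM. Of 19 clock genes 5 fell, led by Npas2 (-1.08), and 3 rose (42.1% called, near the 46.7% over all genes). The labels give no hour at which hearts were taken.

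Most proliferation genes rose. Of 46 genes of DNA replication and mitosis 30 rose and 2 fell (median 0.54). Cenpa, the centromeric histone, went from 4.81, 5.65 and 5.73 to 24.1, 21.5 and 21.1 FPKM (log2 fold change 1.86 ± 0.17 (SE), adjusted p = 4.42e-07), close to the chow hearts at 19.3, 24.6 and 17.3. Uhrf1 (1.48), Birc5 (1.42) and Mcm5 (1.30), which act in replication or cell division, rose, and Cenpf, given above, fell. Ccnd1, the G1 cyclin D1, rose from 8.33, 13.2 and 9.84 to 34.7, 36.3 and 36.1 FPKM (log2 1.70, adjusted p = 8.19e-07), while the cell-cycle inhibitor Cdkn1b was lower (-0.70). The G1 list as a whole gave 6 rises and 6 falls among 20. Macrophage markers also rose (below), and their part in these counts was not tested.

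Growth-factor and lipid-synthesis genes were mixed. Of 31 genes of insulin-like growth factor and growth signalling 8 rose, led by Fgf1 (1.37) and the insulin receptor substrate Irs1 (1.08), and 10 fell. Igfbp3, which binds insulin-like growth factors in the circulation, fell from 46.8, 38.2 and 60.6 to 12.2, 13.1 and 9.44 FPKM (log2 fold change -1.96 ± 0.23 (SE), adjusted p = 6.31e-06). The receptor Igf2r (-1.58) and the translation inhibitor Eif4ebp1 (-1.46) were lower too. In cholesterol and fatty acid synthesis 10 of 29 rose and 4 fell (48.3% called, near the 46.7% over all genes). Mlxipl, the carbohydrate-responsive transcription factor ChREBP, rose from 2.69, 2.44 and 3.64 to 21.9, 20.7 and 17.5 FPKM (log2 fold change 2.43 ± 0.16 (SE), adjusted p = 1.80e-08). Srebf1, a master regulator of fatty acid synthesis that overlaps Rai1 on the opposite strand, fell (-1.24).

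Several extracellular matrix and stress genes were widely scattered among the PTU hearts. Of 49 matrix genes 7 fell and 2 rose (median -0.35). Without cKO PTU replicate 2 the counts were 2 falls and 5 rises, with a median of 0.14, so the direction of this list rested on that library. Thbs4, a matrix glycoprotein, was highest in that library, at 6.68, 24.5 and 6.79 FPKM under PTU and 3.45, 1.73 and 1.89 after T3 (log2 -1.81, adjusted p = 0.0475), and stayed lower without it (log2 -1.24, adjusted p = 0.195). Its call ended under 7 of 16 alternatives. Lamb1, a laminin chain, fell (-0.83), and the basement-membrane genes Col4a2 (0.99) and Hspg2 (0.54) rose. Col4a2 overlaps Col4a1 on the opposite strand. The atrial natriuretic peptide gene Nppa read 3206, 10081 and 3955 FPKM under PTU and 1449, 3313 and 507 after T3, and its log2 difference of -1.90 did not pass the test (adjusted p = 0.0615). It passed under 3 of 16 alternatives, namely without T3 replicate 2, under quantile normalization and with a constant prior, and adjusted p ran from 0.0241 to 0.244 over all 16. Nppb, the B-type peptide, read 373, 777 and 277 and 301, 238 and 258 FPKM (log2 -0.70, adjusted p = 0.389). Of 16 stress markers 3 fell (Myh7, Ankrd1 and Ctgf) and 2 rose (Acta1 and Atp2a2, the latter a gene known to decline in heart failure).

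Of the macrophage markers 8 of 16 rose (median 0.55) and none fell, a share of 50% beside 24.9% over all genes. Erythroid markers, 4 of 8 (median 0.93), and skeletal muscle markers, 3 of 6 (median 0.57), rose in the same share. Lyve1 (1.64), F13a1 (1.32) and Mrc1 (1.12), markers of resident cardiac macrophages, rose. Cd68 read 4.68, 18.6 and 5.99 FPKM under PTU and 28, 22.1 and 19.3 after T3 (log2 fold change 1.38 ± 0.40 (SE), adjusted p = 0.0117), with PTU replicate 2 close to the T3 hearts. This call ended without PTU replicate 1 and in a fit of the compared groups alone. Without PTU replicate 2 the macrophage list had 11 rises (median 1.07) and Cd68 changed by log2 1.92, adjusted p = 2.56e-04. In contrast, the major histocompatibility complex class II gene H2-Aa, used by antigen-presenting cells, fell from 54.8, 147 and 34.3 to 6.67, 10.4 and 7.66 FPKM (log2 fold change -2.86 ± 0.70 (SE), adjusted p = 0.00452), and by log2 -2.29, adjusted p = 0.0244 without PTU replicate 2. Its partners were looked up after this value was seen. H2-Ab1 read 30.4, 97.3 and 25.1 and then 5.4, 6.67 and 6.4 FPKM (log2 -2.60, adjusted p = 0.00655), and the invariant chain Cd74 read 84, 224 and 62.5 and then 14, 19.7 and 18.6 FPKM (log2 -2.55, adjusted p = 0.00582).

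Of the cardiomyocyte markers 7 of 12 rose and 1 fell (median 0.73), with 3 and 4 under quantile normalization (median 0.018). Fibroblast markers gave 2 falls among 14, Tcf21 (-0.97) and Gsn (-0.43), and their median of -0.29 became 0.02 without PTU replicate 2. Endothelial markers gave 3 rises, led by Eng (0.89), and 1 fall among 16, quantile normalization gave 1 and 3, and leaving out PTU replicate 2 gave 1 and 0. Of 8 erythroid markers tested 4 rose, among them Hbb-b1 (0.97), Alas2 (0.89) and Bpgm (0.58), and 2 did without PTU replicate 2. The calls for Hbb-b1, a gene with near-identical copies, and Alas2 each ended under some alternative. The Gsn and S100b calls did so too. In the list of mesothelial and Schwann cell markers 3 of 7 fell, among them the myelin gene Mbp (-0.95) and S100b (-0.57), from a summed level of 14.4, 12.9 and 19.8 FPKM to 8.18, 10.7 and 7.24.

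**Figure D3:**
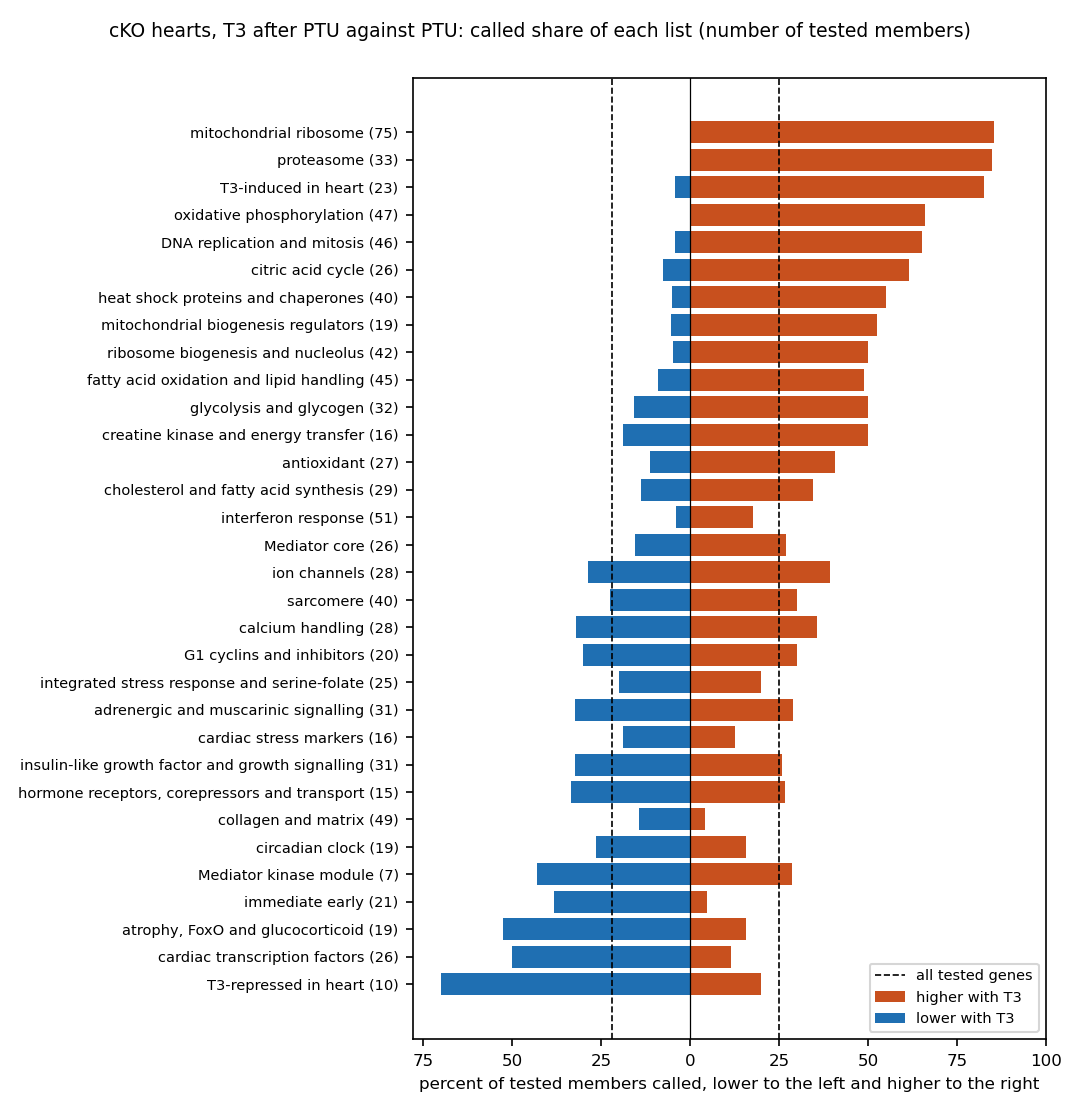
Percent of tested members higher (right) and lower (left) after T3 than under PTU in cKO hearts, for 32 functional gene lists; dashed lines mark 24.9% higher and 21.8% lower, the shares over all genes tested. The mitochondrial ribosome, the proteasome and the T3-induced genes reach farthest to the right, and the T3-repressed genes farthest to the left.

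The T3 hearts were also set beside chow-fed cKO hearts, with total counts and single genes given. No overlap with the main calls is given, since this comparison shares the T3 libraries with the main one. After T3, 2629 genes (20.9%) differed from chow, and under PTU alone 2017 (16%) did. Both counts share the chow libraries, and the difference between them was not tested. Myh6, Myh7 and Atp2a2 did not differ from chow at the threshold, at log2 differences of -0.054, 0.37 and -0.15. Hr (log2 3.09 ± 0.17 (SE), adjusted p = 5.84e-08), Thrb (log2 0.79 ± 0.15 (SE), adjusted p = 0.0015) and Cycs (log2 0.81 ± 0.15 (SE), adjusted p = 0.00161) were above chow. Myom2 (log2 -3.41 ± 0.22 (SE), adjusted p = 1.63e-07), Kcnip2 (log2 -2.84 ± 0.34 (SE), adjusted p = 6.67e-05) and Thra (log2 -0.59 ± 0.088 (SE), adjusted p = 3.17e-04) were below it.

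WT hearts given the same treatments served to ask whether the response to T3 differed with the labelled genotype. In WT, 5545 genes (44.1%) were called, 2802 (22.3%) higher and 2743 (21.8%) lower. Of the cKO calls, 4259 were called in the same direction in WT, which is 72.5% of the cKO calls and 76.8% of the WT calls, and 2 were called in opposite directions. Across 12587 genes the log2 fold changes of the genotypes had a Pearson r of 0.866, from libraries that are not shared, with genes that are not independent replicates. The interaction, the T3 effect in cKO minus that in WT, was called for 0 genes (0%) in limma. At an unadjusted p under 0.05 there were 821 genes (6.52%), and the smallest adjusted p was 0.59. The median SE of this difference was 0.17, against 0.12 for the T3 effect in cKO. The 1616 genes called in cKO and not in WT are therefore not shown to respond differently.

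**Figure D4:**
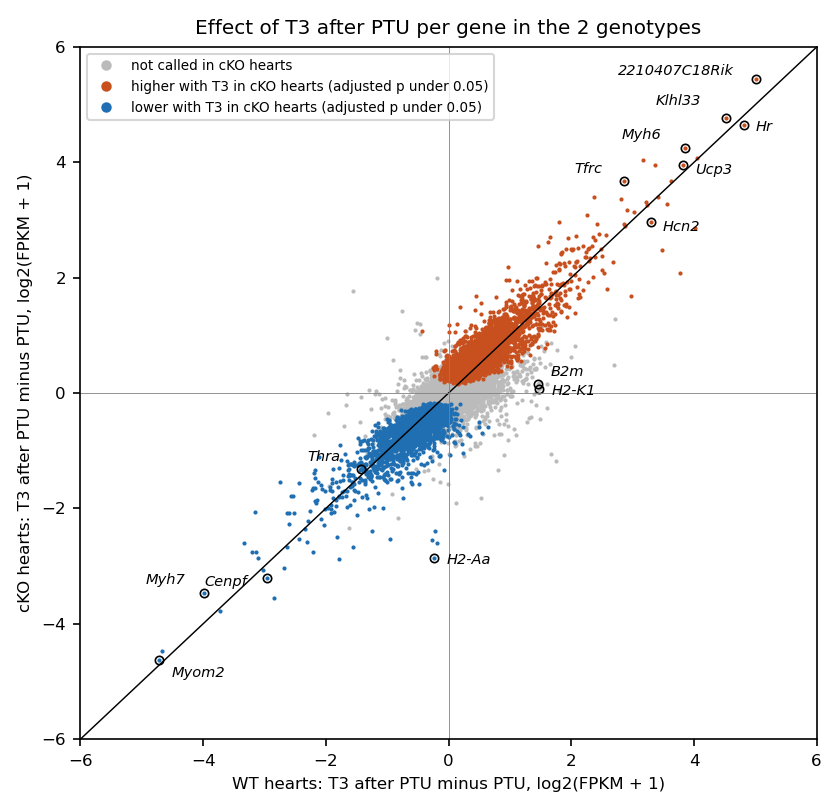
Log2 fold change of T3 with PTU against PTU in WT hearts (x axis) and in cKO hearts (y axis) for 12587 genes, each from 3 against 3 libraries; the line marks equal effects. Points lie along the line with Hr, Myh6 and Klhl33 at the upper right and Myom2 and Myh7 at the lower left.

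The leading genes moved in the same direction in both genotypes. Myh6 rose in WT from 404, 208 and 106 to 3426, 2547 and 3100.0 FPKM (log2 3.85 ± 0.37 (SE), adjusted p = 1.21e-06), and the difference between the genotypes was 0.41 ± 0.52 (SE; unadjusted p = 0.444, adjusted p = 0.822). Myh7 fell in WT from 3088, 2599 and 3642 to 193, 166 and 224 FPKM (log2 -3.99 ± 0.25 (SE), adjusted p = 1.50e-08), with a difference of 0.53 ± 0.35 (SE; unadjusted p = 0.156, adjusted p = 0.704). For Hr the WT hearts read 1.15, 1.43 and 0.368 and then 59.3, 48.7 and 51.4 FPKM (log2 4.81 ± 0.17 (SE), adjusted p = 6.22e-11), and the difference was -0.16 ± 0.24 (SE; unadjusted p = 0.522, adjusted p = 0.853). These intervals are wide, and a p above the threshold does not show equal responses.

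Mitochondrial lists had larger medians in cKO than in WT. In oxidative phosphorylation the difference, cKO minus WT, was positive for 47 of 47 genes, with none at an unadjusted p under 0.05. Over all genes tested 54.8% had this sign. The median of the list was 0.59 in cKO and 0.23 in WT, with 31 and 19 rises. The mitochondrial ribosome had 64 rises in cKO and 47 in WT, with medians of 0.76 and 0.42. Its difference was positive for 71 of 75 genes, and 13 of the 75 had an unadjusted p under 0.05. For the regulators of mitochondrial biogenesis 5 of 19 were at such a p, beside 6.52% over all genes. Without cKO PTU replicate 2 the median differences of these lists, in this order, were 0.23, 0.23 and 0.21, against 0.34, 0.31 and 0.31 with it. That library had the lowest summed oxidative phosphorylation genes of its group, 39697 FPKM against 46537 and 55187. WT T3 replicate 2 also had the lowest sum of its group, 49528 FPKM against 56936 and 68106.5. The genes of a list share libraries and move together, and no difference was called. Summed cardiomyocyte markers in WT were 76556, 69542 and 91753 FPKM under PTU and 80359.7, 66862 and 107161 after T3, and their part in these medians was not tested.

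Interferon-response genes leaned the other way. Of 51 tested, 9 rose and 2 fell in cKO (median 0.24), and 35 rose and none fell in WT (median 0.69). The T3 effect was lower in cKO for 50 of 51, beside 45.2% over all genes, and 20 had an unadjusted p under 0.05. Summed over the list, WT hearts read 833, 791 and 810 FPKM under PTU and 1842, 1084 and 1310 after T3. The cKO hearts read 781, 931 and 908 and then 973, 1062 and 1055 FPKM. WT T3 replicate 1 was thus the highest, and the WT list counts were not repeated without it. In cKO the guanylate-binding protein genes Gbp3 (1.39) and Gbp2 (0.81) rose, and the peptide transporter genes Tap1 (-0.59) and Tap2 (-0.51) fell. Tap1, which loads peptides for class I presentation and overlaps Psmb9 on the opposite strand, read 3.71, 5.79 and 4.64 FPKM under PTU and 2.85, 2.88 and 2.57 after T3 (log2 fold change -0.59 ± 0.19 (SE), adjusted p = 0.0195), a call that ended without PTU replicate 2 or T3 replicate 3. In WT it read 3.64, 3.35 and 3.65 and then 9.37, 5.01 and 4.72 FPKM (log2 0.64 ± 0.19 (SE), adjusted p = 0.0128). The difference between the genotypes was -1.23 ± 0.27 (SE; unadjusted p = 3.40e-04, adjusted p = 0.696).

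Class I antigen presentation held 3 of the 5 genes with the smallest p for the interaction. B2m, the light chain of class I molecules (GRCm38.p6 chromosome 2, 122147687 to 122153082), read 182, 235 and 204 FPKM in cKO PTU and 202, 229 and 261 in cKO T3 hearts (log2 fold change 0.15 ± 0.20 (SE), adjusted p = 0.556). In WT it read 149, 156 and 149 and then 643, 325 and 346 FPKM (log2 1.45 ± 0.20 (SE), adjusted p = 3.00e-05), a difference of -1.30 ± 0.28 (SE; unadjusted p = 2.78e-04, adjusted p = 0.696). WT T3 replicate 1 was the highest of all, and without it the difference was -0.99 (adjusted p = 0.433). The heavy chain gene H2-K1 read 68.9, 83.2 and 80.3 and 74.6, 82.6 and 86.1 FPKM in cKO, and 63.8, 57.4 and 49.5 and 269.7, 112 and 134 in WT, a difference of -1.41 ± 0.31 (SE; unadjusted p = 3.53e-04, adjusted p = 0.696). H2-D1 and the immunoproteasome gene Psmb8 were named after their values were seen. H2-D1 differed by -1.03 ± 0.24 (SE; unadjusted p = 6.36e-04, adjusted p = 0.696) and Psmb8 by -0.85 ± 0.28 (SE; unadjusted p = 0.00797, adjusted p = 0.696). Class I heavy chains are near-identical copies, and reads may be shared between them. The other genes with the smallest p were E130218I03Rik, at -1.003 ± 0.18 (SE; unadjusted p = 4.69e-05, adjusted p = 0.59), and Fam220a, at 0.60 ± 0.13 (SE; unadjusted p = 2.88e-04, adjusted p = 0.696). The first overlaps Zfp593 on the opposite strand, and it was called without cKO PTU replicate 1 (-1.16, adjusted p = 0.0353).

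**Figure D5:**
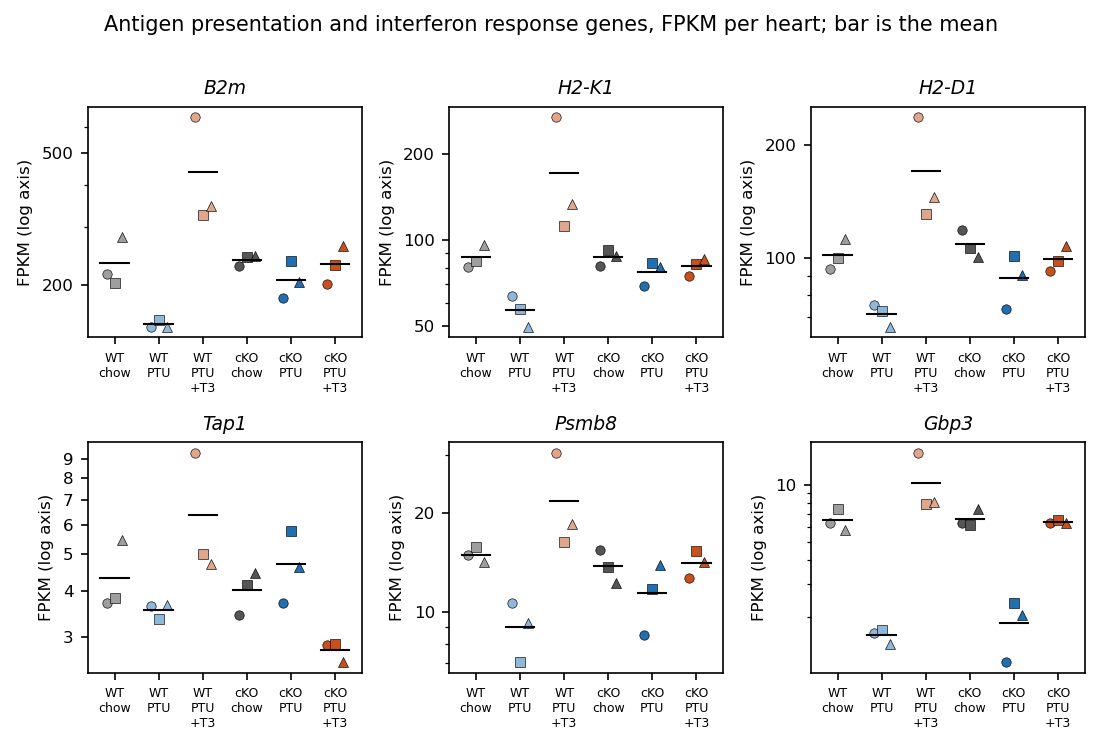
FPKM of 6 genes of class I antigen presentation and the interferon response in each of the 18 hearts on log axes, by group; circles, squares and triangles are replicates 1, 2 and 3 and bars are group means. B2m read 202 to 261 FPKM in cKO T3 hearts and 325 to 643 in WT T3 hearts, with WT T3 replicate 1 the highest for B2m, H2-K1, H2-D1 and Tap1.

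Matrix genes also had a lower T3 effect in cKO, for 49 of 49 tested, beside 45.2% over all genes, with medians of -0.35 in cKO and 0.54 in WT. The median difference of -0.84 became -0.37 without cKO PTU replicate 2. A second library, WT T3 replicate 2, stood apart on the second principal component in the same direction as cKO PTU replicate 2, at 26.69. Summed matrix genes read 1840, 4174 and 1792 FPKM in cKO PTU replicates 1, 2 and 3. In WT T3 replicates 1, 2 and 3 they read 1809, 4085 and 2050.5 FPKM. A high level in either of the outlying libraries lowers the cKO minus WT difference.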

How the data were processed

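PolyA RNA of 18 mouse hearts was sequenced, 3 libraries in each of 6 groups. The deposited values are FPKM per gene in 1 table for all libraries, made by the authors with Bowtie2 and Cufflinks on mm10, per the submitters' processing notes. Versions and the strand setting are not given in the sources used here. A total of 24341 genes is listed with 0.01 as the lowest value, and 2 genes with 5 failed estimates were left out. FPKM has no read totals, so depth is known only in relative terms and the number of libraries limits the precision. A gene was tested if 3 or more of the 18 libraries had 1 FPKM or above, which left 12587 genes. The test was run with limma 3.58.1 in R 4.3.3 on log2(FPKM + 1). The fit had 6 group means, trend and robust moderation and 12 residual degrees of freedom, and p-values were adjusted by Benjamini-Hochberg within each comparison over all genes tested. The method was tested on simulated data. Figures were drawn with matplotlib 3.10.9.

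Named genes are a panel, the 10 largest rises and falls without group overlap, up to 4 called rises and 4 falls per list, and the 5 smallest p-values of the interaction. Some genes this rule names are not reported here. The comparison, its members and the 43 gene lists (32 functional and 11 of markers) were chosen with earlier results of these data known. The lists hold 1074 genes, of which 1000 were tested, 66 were below the filter, 7 were not matched in the table and 1 had a failed estimate. Of the tested genes 12004 (95.4%) matched RefSeq GRCm38.p6 by symbol. For 11974 of them (99.8%) the RefSeq position overlapped that in the authors' table, so positions and promoter sequences come from RefSeq. Overlaps of exons come from GENCODE. Alternatives were other constants, filters, scalings and fits, and each of the 12 PTU and PTU with T3 libraries left out in turn. One, leaving out cKO PTU replicate 2 and WT T3 replicate 2 together, was added after seeing the data.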

Additional observations from a re-analysis of the deposited data

How the results depend on the processing

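Over all settings tried, T3 in cKO gave 4813 to 6292 called genes and T3 in WT gave 4455 to 5834. Leaving out 1 of the 6 libraries compared gave 4957 to 5440 in cKO and 4732 to 5063 in WT. Leaving out 1 of the 6 of the other genotype gave 5789 to 5956 and 5427 to 5654. For the interaction the count was 0 under the main setting and 0 to 1 across leave-outs. The 1 call came without cKO PTU replicate 1 (E130218I03Rik, log2 difference -1.16, adjusted p = 0.0353). Testing without a filter gave 1 call as well, Spata45 (-0.41, adjusted p = 7.82e-05), whose highest value was 0.395 FPKM. Of 239 named genes called in cKO, 200 kept the call under every alternative, 39 did not under at least 1, and 20 did not without cKO PTU replicate 2. None of them changed direction. The share of calls that were rises ran from 49.3% to 57.7%, with 53.4% in the report. No paired analysis was possible because the labels give the libraries no replicate numbers shared between groups. FPKM without read totals leaves the counting error of genes near 1 FPKM unknown.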
